A study of Homo sapiens with 6 samples.

Results

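Transcripts of 38 genes of homologous recombination, the Fanconi pathway and mismatch repair were followed in H23 cells, an established human lung adenocarcinoma line, after transfection with an siRNA to HOTAIR-N. HOTAIR is a long non-coding RNA, and HOTAIR-N is one of its forms. The 38 genes were chosen by name from the 27968 genes in the deposited tables, with earlier results of these data known. All 38 passed the filter on low counts, among 15072 tested genes. There were 3 libraries with HOTAIR-N siRNA and 3 with control siRNA, each from a transfection of its own, and total RNA was taken at 48 hours. The same lipid reagent, RNAiMAX, delivered both siRNAs, so every library comes from transfected cells of 1 line. Per the labels the libraries were made with a stranded total RNA kit after removal of ribosomal RNA.

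Homologous recombination repairs a DNA break by copying an intact sister. The ends are trimmed to single strands, BRCA1 and its partners bring BRCA2, BRCA2 loads the recombinase, and helicases and translocases then steer and dissolve the joined molecules. The Fanconi pathway marks DNA that is cross-linked across its strands, by attaching ubiquitin to the FANCD2 and FANCI pair, and hands it to the same machinery. Mismatch repair recognises wrongly paired bases after replication and removes the new strand around them. Many of these genes are used most in S and G2 phase, and defects in them sensitise tumour cells to platinum drugs and PARP inhibitors.

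Levels are given as deposited TPM, which is scaled for transcript length, wherever different genes are set side by side. Differences between the siRNAs are given in CPM, counts scaled to library size by TMM, with log2 fold changes of HOTAIR-N siRNA over control siRNA from edgeR's quasi-likelihood test and p-values adjusted over all 15072 tested genes at a threshold of 0.05. Errors on means are SD with n = 3 in each group.

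The libraries held 32715361 to 35329948 expected counts with HOTAIR-N siRNA and 34715341 to 36578681 with control siRNA, and no member had fewer than 10 counts in any library. HOTAIR itself had 2.68, 2.18 and 2.3 CPM in the HOTAIR-N siRNA libraries, against 4.89, 4.24 and 5.58 CPM in the control siRNA libraries, with no overlap and a log2 fold change of -1.04 (SE 0.14, edgeR adjusted p = 1.32e-05). Permuting its CPM exactly and on both sides gave p = 0.1, the smallest that 3 against 3 libraries allow. No deposited isoform carries the name HOTAIR-N, so the value covers the whole gene. Of 9 epithelial and lung markers, 7 were at 1 TPM or more in every library, among them the keratins KRT8 and KRT18, while the surfactant gene SFTPB was at 0 to 0.05 TPM with HOTAIR-N siRNA and 0 to 0.02 TPM with control siRNA. The summed level of the 9 was 2924 to 3295 TPM with HOTAIR-N siRNA and 3717 to 4425 TPM with control siRNA, and of the 8 tested 3 were higher and 1 lower. Of 11 markers of blood, endothelial and fibroblast cells, 3 were at 1 TPM or more in every library, while the defining genes PTPRC, CD3E and PECAM1 were at 0 to 0.02 TPM. The summed level of these 11 was 23.7 to 25.4 TPM with HOTAIR-N siRNA and 15.2 to 17.4 TPM with control siRNA, most of the difference being COL1A1, with 11.8, 12.1 and 12.5 TPM with HOTAIR-N siRNA, against 4.21, 3.9 and 3.75 TPM with control siRNA.

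Control siRNA replicate 1 stood apart from the other control libraries. The 38 genes together made up 0.262%, 0.260% and 0.260% of all counts in the HOTAIR-N siRNA libraries, against 0.260%, 0.286% and 0.284% in control siRNA replicates 1, 2 and 3. Their summed TPM was 1239, 1229 and 1229.6 with HOTAIR-N siRNA, against 1248, 1420.4 and 1381 with control siRNA. In sum, therefore, control replicate 1 lay next to the HOTAIR-N siRNA libraries and the other controls lay above them. It was the lowest of the 3 controls for 29 of the 38 genes (76.3%), and for 40.9% of all tested genes. Counts over all members are therefore also given without it.

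Of the 38 genes, 21 were lower and 4 were higher with HOTAIR-N siRNA and 13 did not pass (edgeR, adjusted p under 0.05). Over all tested genes 57.5% were called, 28.8% lower and 28.7% higher, so a called gene was in itself no rarity here. The share of members that were lower, 55.3%, stood above that background and the share that were higher, 10.5%, below it. The median log2 fold change of the 38 genes was -0.22, beside 0.0062 over all tested genes. Without control replicate 1, 22 genes were lower and 4 higher, with a median of -0.26, the lowest under any alternative. The median was nearer to that of all tested genes under others. It was -0.15 with a length and GC trend removed, -0.18 with a length trend removed and -0.19 without control replicate 2. By CPM alone, whether or not a gene passed, 22 members had all HOTAIR-N siRNA values below all controls and 5 had all above. Among them were FANCL, ATRIP, PMS2 and FANCF, which did not pass, while BARD1 and FANCB passed with overlap. Of all tested genes 62.9% were separated, 31.3% and 31.6% in those directions. Most of these differences were small. None of the 38 reached a change of 2-fold, and only NBN and RAD54L passed a test against a fold of 1.5. The measurements are of bulk RNA, in which fewer cells expressing a gene and less RNA per cell cannot be told apart.

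**Figure D1:**
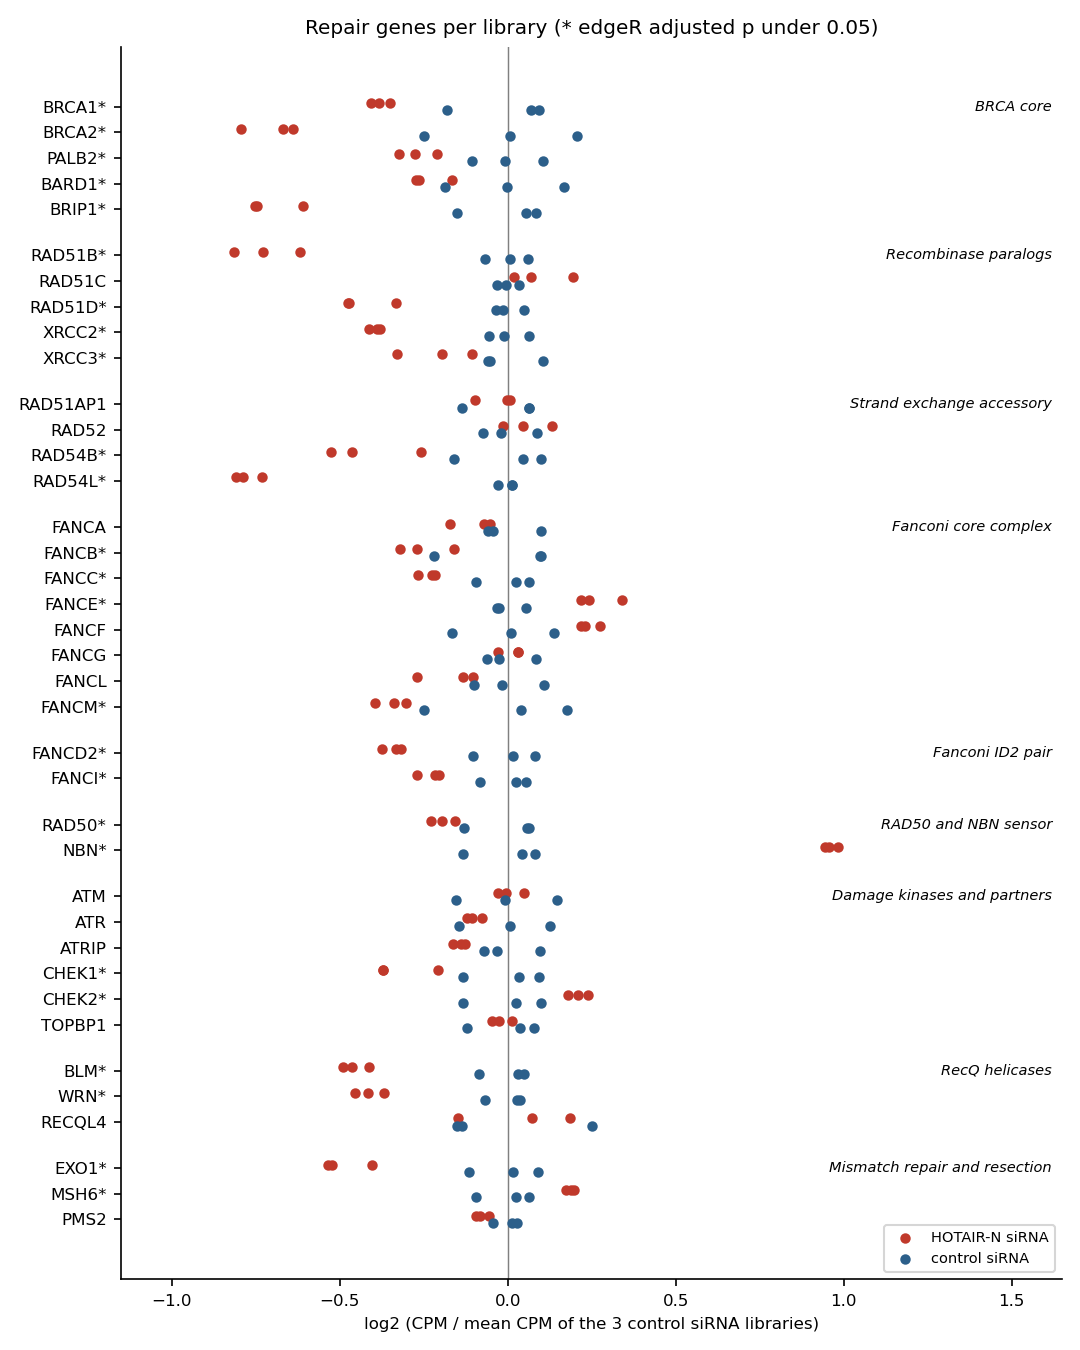
Each point is 1 library, red for HOTAIR-N siRNA and blue for control siRNA, as the log2 of its CPM over the mean CPM of the 3 control libraries, with genes grouped by role and an asterisk at edgeR adjusted p under 0.05. Most red points lie to the left of the blue ones, RAD54L, RAD51B, BRIP1 and BRCA2 the farthest, while NBN alone lies near 1, with a log2 fold change of 0.96.

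The 5 genes of the BRCA core, which recognises resected ends and loads the recombinase, were all lower. BRCA2, the loader itself, had 44.6, 48.7 and 49.7 CPM in the HOTAIR-N siRNA libraries, against 65.1, 89.3 and 77.8 CPM in the control siRNA libraries. The lowest control library, replicate 1, was still above every HOTAIR-N siRNA library, and BRCA2 stood at 61.6% of control (log2 fold change -0.70, SE 0.09, edgeR adjusted p = 1.32e-05). In TPM, BRCA2 was at 7.36, 8.16 and 8.36 TPM with HOTAIR-N siRNA, against 10.9, 15.8 and 13.3 TPM with control siRNA. BRIP1, the helicase that binds the BRCA1 carboxyl-terminal repeats, had 26.2, 23.7 and 23.8 CPM in the HOTAIR-N siRNA libraries, against 35.97, 41.5 and 42.3 CPM in the control siRNA libraries. Its groups were separated by a wide gap, and the log2 fold change of -0.70 (SE 0.08, edgeR adjusted p = 2.00e-06) was as large as that of BRCA2. Per length, BRIP1 was at 6.07, 5.57 and 5.62 TPM with HOTAIR-N siRNA, against 8.45, 10.3 and 10.1 TPM with control siRNA. BRCA1, a ubiquitin ligase that promotes resection, had 125, 128 and 123 CPM in the HOTAIR-N siRNA libraries, against 144, 174 and 171 CPM in the control siRNA libraries, and all HOTAIR-N siRNA values were below the lowest control, again replicate 1 (log2 fold change -0.38, SE 0.07, edgeR adjusted p = 0.000229). Its TPM values were 36.3, 37.3 and 36.4 TPM with HOTAIR-N siRNA, against 41.1, 52.4 and 50.2 TPM with control siRNA. PALB2, which bridges BRCA1 and BRCA2, was at 82.99% of control without overlap (log2 fold change -0.27, SE 0.07, edgeR adjusted p = 0.00439). BARD1, the obligate partner of BRCA1, was the weakest of the group, with a log2 fold change of -0.23 (SE 0.08, edgeR adjusted p = 0.0258) and overlapping CPM. BARD1 no longer passed without HOTAIR-N siRNA replicate 2 (adjusted p = 0.0822), without HOTAIR-N siRNA replicate 3 (0.0779) or without control replicate 2 (0.147), with a length trend removed (0.066) or with a replicate block in addition (0.135).

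Of the 5 recombinase paralogs, which help the recombinase filament form and stay on DNA, 4 were lower and 1 did not pass. RAD51B, a subunit of the larger paralog complex, had 4.21, 4.82 and 4.46 CPM in the HOTAIR-N siRNA libraries, against 7.06, 7.42 and 7.71 CPM in the control siRNA libraries. It had the lowest TPM of the paralogs and rank 36 of the 38 genes in control TPM, and its groups did not overlap, at 60.8% of control (log2 fold change -0.72, SE 0.10, edgeR adjusted p = 1.86e-05). In TPM it was at 5.03, 5.59 and 5.42 TPM with HOTAIR-N siRNA, against 7.26, 8.15 and 8.07 TPM with control siRNA. RAD51D had 14.6, 16.1 and 14.6 CPM in the HOTAIR-N siRNA libraries, against 20.9, 19.8 and 20.1 CPM in the control siRNA libraries and XRCC2, its direct binding partner, 37.8, 38.1 and 37.2 CPM with HOTAIR-N siRNA, against 47.7, 49.2 and 51.8 CPM with control siRNA. Neither gene's groups overlapped, and their log2 fold changes were -0.43 (SE 0.07, edgeR adjusted p = 0.00016) for RAD51D and -0.39 (SE 0.06, edgeR adjusted p = 6.08e-05) for XRCC2. Per length RAD51D stood at 12.6, 13.8 and 12.6 TPM with HOTAIR-N siRNA, against 18.8, 18.8 and 18.6 TPM with control siRNA, and XRCC2 at 24.2, 24.6 and 24.2 TPM with HOTAIR-N siRNA, against 30.9, 33.8 and 34.2 TPM with control siRNA. XRCC3 was lower by less, with a log2 fold change of -0.21 (SE 0.08, edgeR adjusted p = 0.0347). XRCC3 did not pass without HOTAIR-N siRNA replicate 1 (adjusted p = 0.16), HOTAIR-N siRNA replicate 3 (0.0889) or control replicate 1 (0.0891), with upper-quartile factors (0.0592), with library size only (0.0596) or with a replicate block (0.0729). RAD51C, which sits in both paralog complexes and is the partner of XRCC3, went the other way from its group without passing, with 42.8, 39.3 and 37.9 CPM in the HOTAIR-N siRNA libraries, against 36.6, 37.3 and 38.3 CPM in the control siRNA libraries and a log2 fold change of 0.10 (SE 0.07, edgeR adjusted p = 0.229). RAD51C was also by far the most abundant paralog, at 83.7, 77.2 and 73.3 TPM with HOTAIR-N siRNA, against 70.2, 77.2 and 76.8 TPM with control siRNA.

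The 4 genes that assist strand exchange split evenly. RAD54L, the translocase that remodels the recombinase filament on duplex DNA, had 43.1, 45.5 and 43.7 CPM in the HOTAIR-N siRNA libraries, against 76.2, 76.1 and 74.02 CPM in the control siRNA libraries. The highest HOTAIR-N siRNA library was far below the lowest control library, and control replicate 1 was here the highest of the controls rather than the lowest. At 58.4% of control, it had the lowest log2 fold change of the 38 genes, -0.77 (SE 0.06, edgeR adjusted p = 3.64e-08). Per length it was at 28.5, 30.2 and 28.9 TPM with HOTAIR-N siRNA, against 50.2, 53.5 and 50.5 TPM with control siRNA. RAD54B, its paralog, had 34.8, 30.2 and 28.9 CPM in the HOTAIR-N siRNA libraries, against 37.3, 42.9 and 44.6 CPM in the control siRNA libraries, with no overlap (log2 fold change -0.41, SE 0.08, edgeR adjusted p = 0.000667), and 19.3, 17.5 and 17.02 TPM with HOTAIR-N siRNA, against 23.4, 28.2 and 28.4 TPM with control siRNA. RAD52, an annealing protein, and RAD51AP1, which stimulates strand invasion, overlapped and did not pass, at 0.05 (SE 0.07) and -0.03 (SE 0.07) on the log2 scale.

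Among 8 genes of the Fanconi core complex and its translocase, 3 were lower, 1 was higher and 4 did not pass. FANCM, the DNA translocase that anchors the complex at stalled forks, had a log2 fold change of -0.34 (SE 0.09, edgeR adjusted p = 0.00412). FANCC had -0.24 (SE 0.07, edgeR adjusted p = 0.00666) without overlap, and FANCB, which binds the ligase subunit FANCL, -0.25 (SE 0.09, edgeR adjusted p = 0.034) with overlap in CPM. FANCB did not pass without HOTAIR-N siRNA replicate 2 (adjusted p = 0.0867), HOTAIR-N siRNA replicate 3 (0.122), control replicate 2 (0.13) or control replicate 3 (0.119), or with a replicate block (0.0606). FANCE, which joins the core complex to FANCD2, was the only 1 of the 8 called higher. It had 18.1, 17.8 and 19.4 CPM in the HOTAIR-N siRNA libraries, against 15.9, 15.1 and 14.98 CPM in the control siRNA libraries, every HOTAIR-N siRNA library above every control library, with a log2 fold change of 0.27 (SE 0.07, edgeR adjusted p = 0.00541), and 14.1, 14.03 and 15.3 TPM with HOTAIR-N siRNA, against 12.5, 12.6 and 12.03 TPM with control siRNA. FANCF, an adaptor within the complex and the least abundant of the 38 genes, had 5.39, 5.44 and 5.61 CPM in the HOTAIR-N siRNA libraries, against 4.13, 5.1 and 4.67 CPM in the control siRNA libraries. Its groups did not overlap either, but it did not pass (log2 fold change 0.24, SE 0.11, edgeR adjusted p = 0.0654), except without control replicate 2 (adjusted p = 0.0346), with upper-quartile factors (0.0431), with library size only (0.046), with a length trend removed (0.0469) and with a length and GC trend removed (0.00562). FANCL, the ubiquitin ligase, had -0.17 (SE 0.07) and passed without control replicate 1 (adjusted p = 0.0139), with a length trend removed (0.0221) and with a length and GC trend removed (0.0134). FANCA and FANCG, which bind each other, had -0.10 (SE 0.07) and 0.01 (SE 0.06) and did not pass.

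Both genes of the pair that the core complex ubiquitinates were lower. FANCD2 had 75.7, 77.8 and 78.6 CPM in the HOTAIR-N siRNA libraries, against 91.2, 104 and 99.2 CPM in the control siRNA libraries, with all HOTAIR-N siRNA values close together and under the lowest control (log2 fold change -0.34, SE 0.06, edgeR adjusted p = 0.000204), and 28.1, 29.3 and 29.7 TPM with HOTAIR-N siRNA, against 34.3, 41.3 and 38.1 TPM with control siRNA. FANCI, at rank 3 of the 38 genes in control TPM, was at 70.95 ± 1.54 TPM with HOTAIR-N siRNA and 85.7 ± 5.93 TPM with control siRNA. FANCI was separated too, with a log2 fold change of -0.23 (SE 0.05, edgeR adjusted p = 0.00212).

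The break sensor gave the sharpest contrast. NBN, which encodes nibrin and recruits ATM to breaks, had 133, 131 and 129.8 CPM in the HOTAIR-N siRNA libraries, against 61.4, 69.4 and 71.4 CPM in the control siRNA libraries. The HOTAIR-N siRNA libraries agreed within a few CPM and lay far above all controls, at 195% of control (log2 fold change 0.96, SE 0.06, edgeR adjusted p = 9.74e-09). NBN had the smallest p of the 38 genes, and its log2 fold change stayed between 0.90 and 1.04 under every alternative tried. Per length it was at 55.3, 55.04 and 54.95 TPM with HOTAIR-N siRNA, against 25.9, 31.01 and 30.7 TPM with control siRNA. RAD50, the coiled-coil ATPase of the same complex, was lower by a small amount, with 131, 125 and 128 CPM with HOTAIR-N siRNA, against 134, 153 and 152 CPM with control siRNA (log2 fold change -0.19, SE 0.06, edgeR adjusted p = 0.0138). RAD50 did not pass without HOTAIR-N siRNA replicate 2 (adjusted p = 0.0648), control replicate 2 (0.0538) or control replicate 3 (0.0536), with a length trend removed (0.0699, log2 fold change -0.11) or with a replicate block in addition (0.164). Over all alternatives its log2 fold change ranged from -0.25 to -0.07.

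Of the 6 damage kinases and their partners, 1 was lower, 1 higher and 4 did not pass. The apical kinases did not pass, at 0.01 (SE 0.07) for ATM and -0.10 (SE 0.07) for ATR on the log2 scale with overlapping groups, although ATR passed without control replicate 1 (-0.16, adjusted p = 0.00809) and ATM with a length and GC trend removed (0.12, adjusted p = 0.00663). ATRIP, the partner that brings ATR to single-stranded DNA, had -0.14 (SE 0.08) and passed with a length and GC trend removed (-0.24, adjusted p = 0.00229), and TOPBP1, which activates ATR, had -0.02 (SE 0.06). The effector kinases moved apart. CHEK1, downstream of ATR, had 58.8, 52.4 and 52.4 CPM in the HOTAIR-N siRNA libraries, against 61.8, 69.4 and 72.3 CPM in the control siRNA libraries, and the groups did not overlap (log2 fold change -0.31, SE 0.07, edgeR adjusted p = 0.00159). CHEK2, downstream of ATM, had 44.98, 44.03 and 43.2 CPM in the HOTAIR-N siRNA libraries, against 38.7, 34.7 and 40.8 CPM in the control siRNA libraries, with every HOTAIR-N siRNA library above every control (log2 fold change 0.21, SE 0.07, edgeR adjusted p = 0.017). In TPM CHEK1 was at 37.1, 33.7 and 34.7 TPM with HOTAIR-N siRNA, against 40.1, 45.8 and 46.5 TPM with control siRNA, and CHEK2 at 49.2, 48.6 and 47.8 TPM with HOTAIR-N siRNA, against 43.02, 40.9 and 46.2 TPM with control siRNA. CHEK2 did not pass without HOTAIR-N siRNA replicate 1 (adjusted p = 0.0629) or control replicate 2 (0.088), or with a length trend removed and a replicate block (0.074).

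Of the 3 RecQ helicases, BLM and WRN were lower. BLM, which dissolves double Holliday junctions, had 46.04, 43.6 and 44.4 CPM in the HOTAIR-N siRNA libraries, against 57.7, 62.6 and 63.4 CPM in the control siRNA libraries (log2 fold change -0.46, SE 0.06, edgeR adjusted p = 1.71e-05). WRN, a helicase with an exonuclease domain, had 39.3, 37.1 and 38.03 CPM in the HOTAIR-N siRNA libraries, against 48.4, 52.1 and 51.8 CPM in the control siRNA libraries (log2 fold change -0.41, SE 0.06, edgeR adjusted p = 4.40e-05). In both genes the HOTAIR-N siRNA libraries clustered tightly and below all controls. Per length, BLM was at 19.4, 18.6 and 19.1 TPM with HOTAIR-N siRNA, against 24.7, 28.4 and 27.6 TPM with control siRNA, and WRN at 9.46, 9.06 and 9.34 TPM with HOTAIR-N siRNA, against 11.8, 13.5 and 12.9 TPM with control siRNA. RECQL4, which works at replication origins, had 12.6, 15.9 and 14.7 CPM in the HOTAIR-N siRNA libraries, against 16.6, 12.7 and 12.6 CPM in the control siRNA libraries, overlapping throughout, with a log2 fold change of 0.05 (SE 0.11) that did not pass.

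The 3 genes of mismatch repair and resection went 3 ways. EXO1, the exonuclease that resects both mismatched strands and broken ends, had 51.01, 46.6 and 46.99 CPM in the HOTAIR-N siRNA libraries, against 62.3, 68.3 and 71.9 CPM in the control siRNA libraries, without overlap (log2 fold change -0.49, SE 0.07, edgeR adjusted p = 2.16e-05). MSH6, the partner that recognises single-base mismatches, had 439, 447 and 444 CPM in the HOTAIR-N siRNA libraries, against 365, 407 and 397 CPM in the control siRNA libraries. All of its HOTAIR-N siRNA values were above all of its controls, by little (log2 fold change 0.19, SE 0.05, edgeR adjusted p = 0.00771). PMS2, the nuclease subunit of the repair complex that follows, had -0.08 (SE 0.05) and did not pass. In TPM, EXO1 was at 29.9, 27.4 and 28.1 TPM with HOTAIR-N siRNA, against 36.9, 42.7 and 43.3 TPM with control siRNA, and MSH6 at 196, 202 and 202 TPM with HOTAIR-N siRNA, against 165, 195 and 183 TPM with control siRNA.

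The 38 transcripts covered a wide range of levels. In control TPM, MSH6 was the most abundant at 200.2 ± 3.38 TPM with HOTAIR-N siRNA and 181 ± 15.1 TPM with control siRNA, followed by TOPBP1 with 96.5 ± 1.37 TPM with HOTAIR-N siRNA and 101 ± 9.19 TPM with control siRNA. At the other end were FANCF with 3.27 ± 0.0961 TPM with HOTAIR-N siRNA and 2.86 ± 0.38 TPM with control siRNA, RECQL4 with 7.39 ± 0.901 TPM with HOTAIR-N siRNA and 7.37 ± 1.05 TPM with control siRNA and RAD51B with 5.35 ± 0.287 TPM with HOTAIR-N siRNA and 7.83 ± 0.492 TPM with control siRNA. MSH6 stood above 94.3% of all tested genes in control TPM and FANCF above 25.6%. Neighbours in this order often lay within each other's spread, as did RAD51AP1 with 61.3 ± 2.28 TPM with HOTAIR-N siRNA and 64.6 ± 6.5 TPM with control siRNA and FANCG with 62.5 ± 2.02 TPM with HOTAIR-N siRNA and 63.8 ± 1.95 TPM with control siRNA. NBN stood at rank 18 of 38 in control TPM, and its level with HOTAIR-N siRNA exceeded that of RAD54L, which stood at rank 7.

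**Figure D2:**
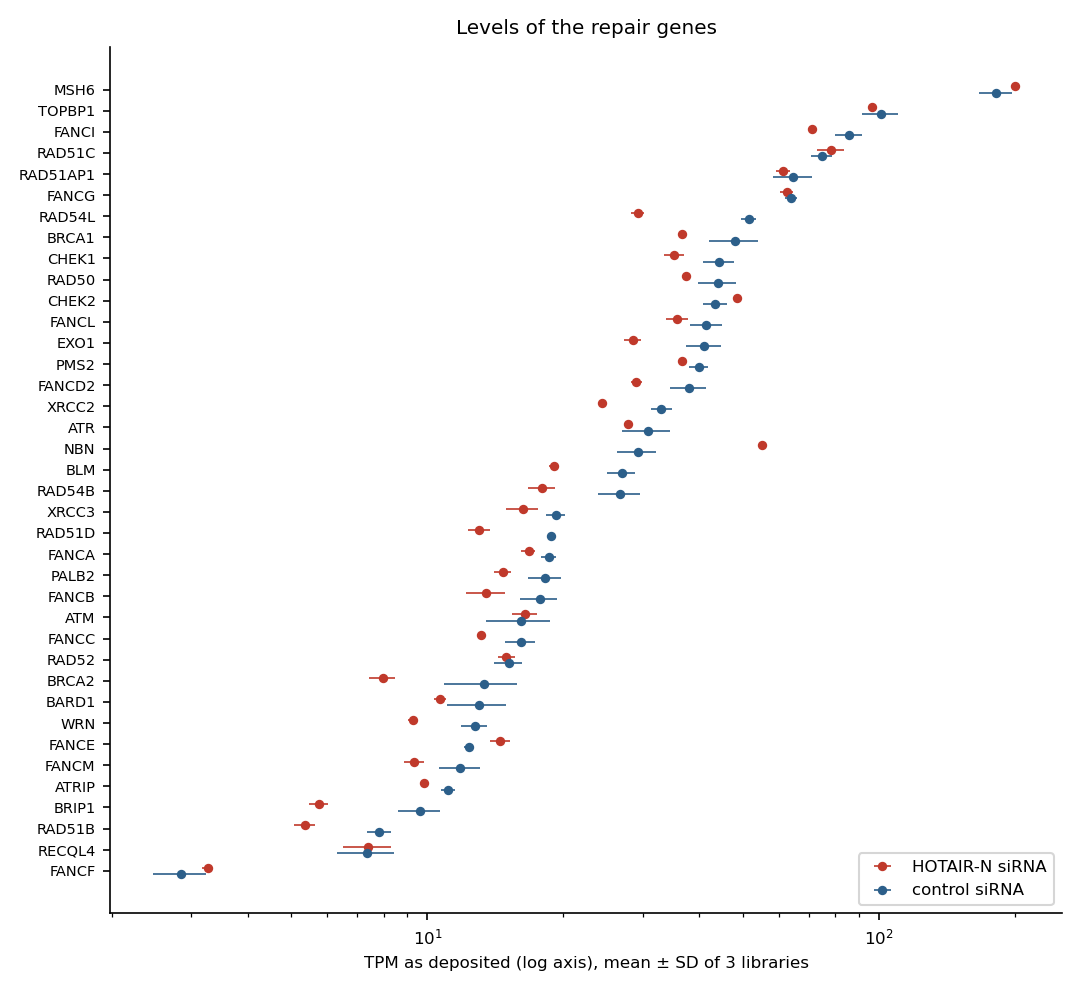
Points are mean deposited TPM on a log axis, with bars of SD over 3 libraries, red for HOTAIR-N siRNA and blue for control siRNA, and genes in order of their control mean. MSH6 is at the top of the order and FANCF at the bottom, and NBN is the gene whose red point is far to the right of its blue one.

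Partner genes were also compared as ratios within each library, which do not depend on how libraries are scaled to each other. For RAD50 over NBN, the log2 ratio of TPM was -0.55, -0.59 and -0.55 with HOTAIR-N siRNA, against 0.59, 0.61 and 0.57 with control siRNA. RAD50 was thus the less abundant transcript in every HOTAIR-N siRNA library and the more abundant in every control library, with ratios of 0.677 with HOTAIR-N siRNA and 1.51 with control siRNA on a linear scale. CHEK1 over CHEK2 gave log2 ratios of -0.41, -0.53 and -0.46 with HOTAIR-N siRNA, against -0.10, 0.17 and 0.01 with control siRNA, so that CHEK2 exceeded CHEK1 in every HOTAIR-N siRNA library and the controls lay on both sides of equal levels. The mean log2 ratio of RAD51B over RAD51C was -3.87 ± 0.17 with HOTAIR-N siRNA and -3.26 ± 0.02 with control siRNA, that of XRCC3 over RAD51C -2.27 ± 0.20 with HOTAIR-N siRNA and -1.96 ± 0.14 with control siRNA, and that of BRCA2 over PALB2 -0.89 ± 0.09 with HOTAIR-N siRNA and -0.46 ± 0.19 with control siRNA. Each of these ratios was lower in every HOTAIR-N siRNA library than in any control library. FANCD2 over FANCI and FANCA over FANCG were lower by 0.11 and 0.12 without overlap, and MSH6 over PMS2 was the 1 separated ratio that was higher, at 2.45 ± 0.03 with HOTAIR-N siRNA and 2.18 ± 0.05 with control siRNA. BRCA1 over BARD1, RAD51D over XRCC2, ATR over ATRIP and ATM over ATR overlapped. In all, 8 of 12 pairs were separated, each at the smallest exact two-sided permutation p that 3 against 3 libraries allow, 0.1, or 0.15 adjusted over the 12 pairs, so none passes the threshold. Over all tested genes 62.9% were separated in CPM, and a share for ratios of other gene pairs is not given here. The pairs were chosen with earlier results of these data known.

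**Figure D3:**
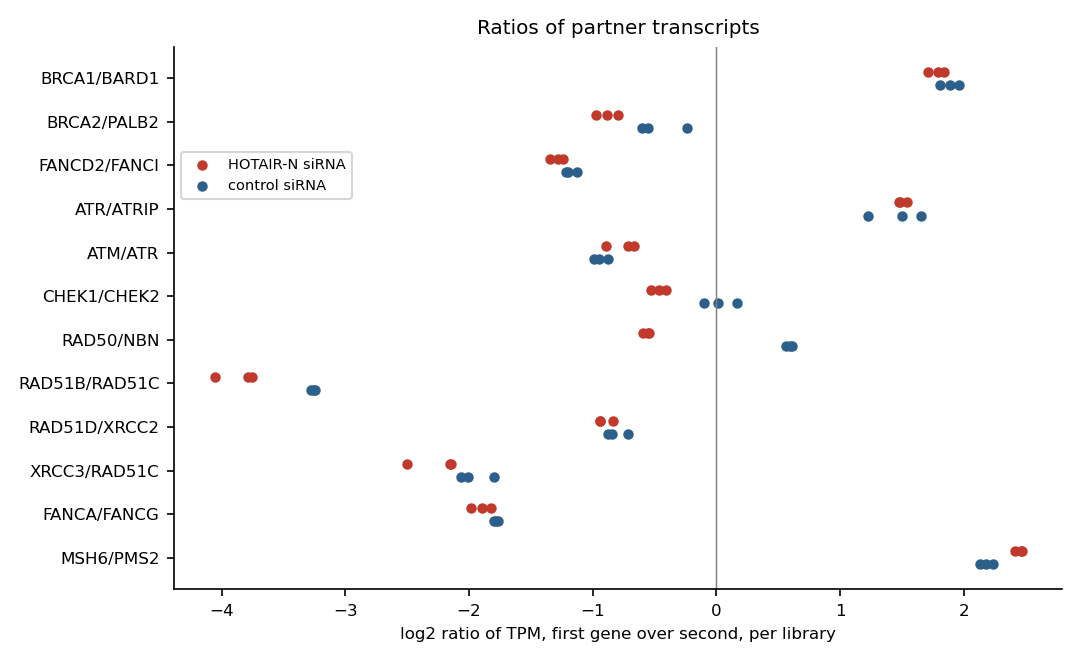
Points are log2 ratios of TPM, first gene over second, in single libraries, red for HOTAIR-N siRNA and blue for control siRNA. RAD50/NBN crosses from above 0 in all blue points to below 0 in all red ones, and ATR/ATRIP, ATM/ATR, BRCA1/BARD1 and RAD51D/XRCC2 overlap.

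The 38 genes were set beside other genes of genome maintenance from fixed lists. Of 48 other genes of homologous recombination, the Fanconi pathway, mismatch repair and checkpoints, 15 were lower, 8 higher and 25 did not pass, with a median log2 fold change of -0.10. The 4 with the smallest p were all lower. MDC1, the scaffold on marked chromatin at breaks, had -0.60 (SE 0.06), EME1, a subunit of a junction nuclease, -0.73 (SE 0.07), BABAM2, part of the BRCA1-A complex, -0.54 (SE 0.06), and GEN1, a Holliday junction resolvase, -0.65 (SE 0.08). Of 16 genes of end joining, the alternative way to rejoin breaks, 6 were lower and 6 higher, with a median of -0.03. XRCC4, the ligase cofactor, and APLF, its accessory factor, had -0.81 (SE 0.09) and -0.75 (SE 0.09), while the shieldin subunit MAD2L2 and the polymerase POLM had 0.36 (SE 0.06) and 0.42 (SE 0.09). Of 21 genes of base excision and single-strand break repair, 8 were lower and 7 higher, at a median of 0.04, with OGG1, SMUG1 and NEIL1, which excise damaged bases, at 0.46, 0.40 and 1.15 and TDP1 at -0.33. Of 19 genes of nucleotide excision repair, 2 were lower and 5 higher, at a median of 0.04, with ERCC6, ERCC1 and GTF2H4 at 0.58, 0.50 and 0.26 and DDB2 at -0.42. These lists were not tested against the 38 genes.

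Of 25 markers of S phase and proliferation, 12 were lower, 3 higher and 10 did not pass, with a median log2 fold change of -0.07. E2F7, a repressor of the E2F family, had 15.5, 16.2 and 16.95 CPM with HOTAIR-N siRNA, against 31.8, 35.4 and 34.2 CPM with control siRNA (log2 fold change -1.06, SE 0.07, edgeR adjusted p = 1.49e-08). The topoisomerase TOP2A, the helicase subunit MCM6 and MKI67 were lower too, at -0.70 (SE 0.06), -0.51 (SE 0.05) and -0.47 (SE 0.06) on the log2 scale. The part of a change in cell cycle phase in the values of the repair genes was not tested.

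**Figure D4:**
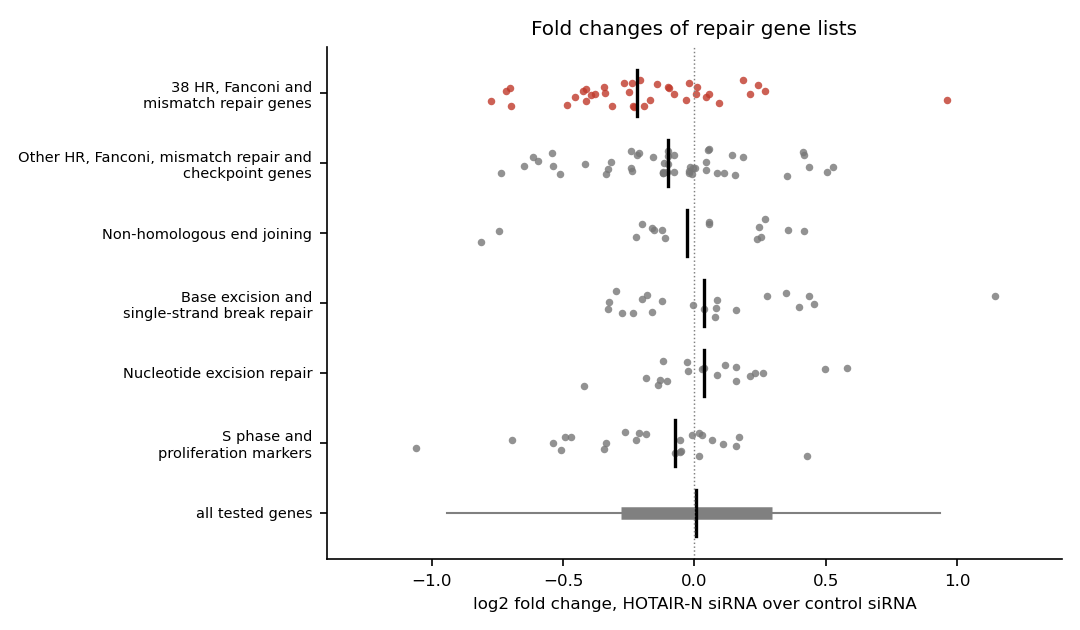
Points are log2 fold changes of single genes, red for the 38 repair genes and grey for other lists, with a black line at each median, and for all tested genes the bar runs between percentiles 25 and 75 and the thin line between 5 and 95. The median of the 38 genes, -0.22, is the lowest of those drawn, and NBN is the lone red point near 1.

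The deposited tables also divide each gene among RefSeq isoforms. The 38 genes had 135 listed isoforms, of which 110 were tested, and 13 were lower, 4 higher and 93 did not pass (edgeR, adjusted over 32627 isoforms, of which 19.5% were called, 10.1% lower and 9.39% higher). These calls were less stable than those of genes. Leaving out a library gave 8 to 15 calls in place of 17, the fewest without control replicate 3 (8) and control replicate 2 (9), then HOTAIR-N siRNA replicate 1 (10) and HOTAIR-N siRNA replicate 2 (11). Only 1 isoform was higher in each of these settings except without HOTAIR-N siRNA replicate 3, where 3 were. The 8 isoforms that passed in all 6 settings were NM_002485 of NBN, NM_003579 of RAD54L, NM_012415 of RAD54B, NM_133629 of RAD51D, and those of BRIP1, XRCC2, BLM and WRN. The only isoform that passed was the single listed or the dominant one in BRCA2 (NM_000059), BRIP1 (NM_032043), XRCC2 (NM_005431), WRN (NM_000553), BLM (NM_000057), RAD54L (NM_003579), FANCI (NM_001113378), BRCA1 (NM_007294) and FANCE (NM_021922), with log2 fold changes of -0.69, -0.69, -0.38, -0.40, -0.49, -0.78, -0.23, -0.49 and 0.28. With a library left out, the call was lost in 6 of 6 settings for FANCE, in 5 for FANCI and in 4 each for BRCA1 and BRCA2. Of the NBN isoforms, NM_002485, over 90% of the gene in every library, had 1.00 (SE 0.07) and NM_001024688 0.66 (SE 0.15), so both were higher. Of EXO1, NM_130398 and NM_001319224 were lower, at -0.53 (SE 0.09) and -0.63 (SE 0.16). With a library left out, the call was lost in 4 of 6 settings for NM_130398, in 6 for NM_001319224 and in 5 for NM_001024688.

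The shares of a gene made up by single isoforms did not overlap between the siRNAs for 31 of 99 tested isoforms in genes with several, 16 higher and 15 lower, in 18 genes. The same share over all tested isoforms is not given here, so whether this count is unusual was not tested. RAD51B, RAD51D, RAD54B and ATM are given by library, chosen after their values were seen, and with all libraries the test of isoform use called none of them. As paired in GENCODE, the 3 RAD51B isoforms shown here share their first exons and differ in the last one, which encodes the end of the protein. To show where they part, the bases on either side of the last junction are given, with the last exon in capitals, as GENCODE release 29 pairs these RefSeq names with transcripts on GRCh38 chromosome 14, plus strand.
RAD51B NM_133510, intron chr14:68468251-68477647: gcctggttcttcaagGCCAAGAGAAGCCAT
RAD51B NM_133509, intron chr14:68468251-68594484: gcctggttcttcaagAGACAACATTTTGCT
RAD51B NM_002877, intron chr14:68468251-68611005: gcctggttcttcaagTTGTTAGAACTGTGG
The 3 junctions leave the same exon and skip increasing stretches of the gene. They rest on the pairing of names, since GENCODE and deposited lengths differ, at 1673 against 1871 nt for NM_002877. NM_133510, which ends at the nearest last exon, made up 58.8, 60.2 and 49.6% with HOTAIR-N siRNA, against 22.8, 25.2 and 24.4% with control siRNA, and its level did not pass (log2 fold change 0.73, SE 0.24, edgeR adjusted p = 0.0966). NM_133509 made up 2.31, 6.66 and 1.43% with HOTAIR-N siRNA, against 20.6, 18.7 and 17.5% with control siRNA, and its level was lower (log2 fold change -2.86, SE 0.66, edgeR adjusted p = 0.0336), but this did not pass in 5 of the 6 settings that leave out a library (adjusted p from 0.0823 to 0.0995 in those). NM_002877 made up 34.8, 25.2 and 31.6% with HOTAIR-N siRNA, against 29.1, 33.3 and 40.3% with control siRNA, with overlap. NM_001321810, the other tested isoform, is paired with the same last junction as NM_002877. It made up 0, 1.02 and 0% with HOTAIR-N siRNA, against 3.69, 4.79 and 6.67% with control siRNA, and its level did not pass (edgeR adjusted p = 0.0865). The share of the nearest ending was thus above, and that of the middle ending below, all controls in every HOTAIR-N siRNA library, in a gene at a low level. The test of isoform use did not call RAD51B (edgeR diffSpliceDGE, Simes adjusted p = 0.743).

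RAD51D, on GRCh38 chromosome 17, minus strand, was divided among 5 tested isoforms. Its NM_002878 has 10 exons and NM_133629 has 7 in GENCODE, and the sequence at the junction where they part is given with the downstream exon in capitals. The GENCODE transcripts paired with these names differ in length from the deposited isoforms, at 9988 against 2404 nt for NM_002878 and 1353 against 2068 nt for NM_133629, so the junctions rest on the pairing of names.
RAD51D NM_133629, intron chr17:35106482-35119110: ggcttgtcttacaagGCAGAAGCTCTCCGG
RAD51D NM_002878, intron chr17:35118620-35119110: ggcttgtcttacaagGCCCTGGTTGCCCTG
The shorter form skips the exons between. NM_133629 made up 14.5, 9.41 and 7.71% with HOTAIR-N siRNA, against 26.2, 30.6 and 36.2% with control siRNA, and its level was lower (log2 fold change -2.03, SE 0.29, edgeR adjusted p = 0.00762). NM_002878, the full-length form, made up 49.6, 47.3 and 49.05% with HOTAIR-N siRNA, against 32.1, 34.1 and 24.5% with control siRNA, and its level did not pass (log2 fold change 0.21, SE 0.16, edgeR adjusted p = 0.433). Of these forms, only the exon-skipping one was called, as far as RSEM could divide the reads. RAD51D counts were not whole in 5 of 6 libraries, since reads are shared with the readthrough gene RAD51L3-RFFL, which had 0, 0.728 and 0.554 CPM with HOTAIR-N siRNA, against 1.79, 2.26 and 2.53 CPM with control siRNA (log2 fold change -2.32, SE 0.56, edgeR adjusted p = 0.0101). In RAD54B, NM_012415 made up 76.8, 81.2 and 85.9% with HOTAIR-N siRNA, against 95.4, 94.1 and 94.9% with control siRNA and was lower (log2 fold change -0.74, SE 0.08, edgeR adjusted p = 0.00273), and NM_001205262 made up 18.6, 14.4 and 12.8% with HOTAIR-N siRNA, against 4.1, 5.48 and 4.35% with control siRNA and was higher (log2 fold change 1.21, SE 0.27, edgeR adjusted p = 0.029). The second call did not pass in 5 of the 6 settings that leave out a library.

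ATM, whose total did not pass, had a main isoform, NM_000051, at 66.2, 65.7 and 65.3% with HOTAIR-N siRNA, against 90.4, 75.5 and 82.7% with control siRNA. NM_001351834 made up 21.3, 22.9 and 30.4% with HOTAIR-N siRNA, against 7.9, 17.3 and 12.7% with control siRNA. The groups did not overlap in either share. Over the 27 members with several tested isoforms, the test of isoform use called 0, with 3 at an unadjusted p under 0.05, RAD54B, MSH6 and ATM (background 4.13% of 7523 genes called). Without control replicate 2 ATM (adjusted p = 0.0231) and MSH6 (0.0373) were called, and without HOTAIR-N siRNA replicate 3 FANCM (0.0378).

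**Figure D5:**
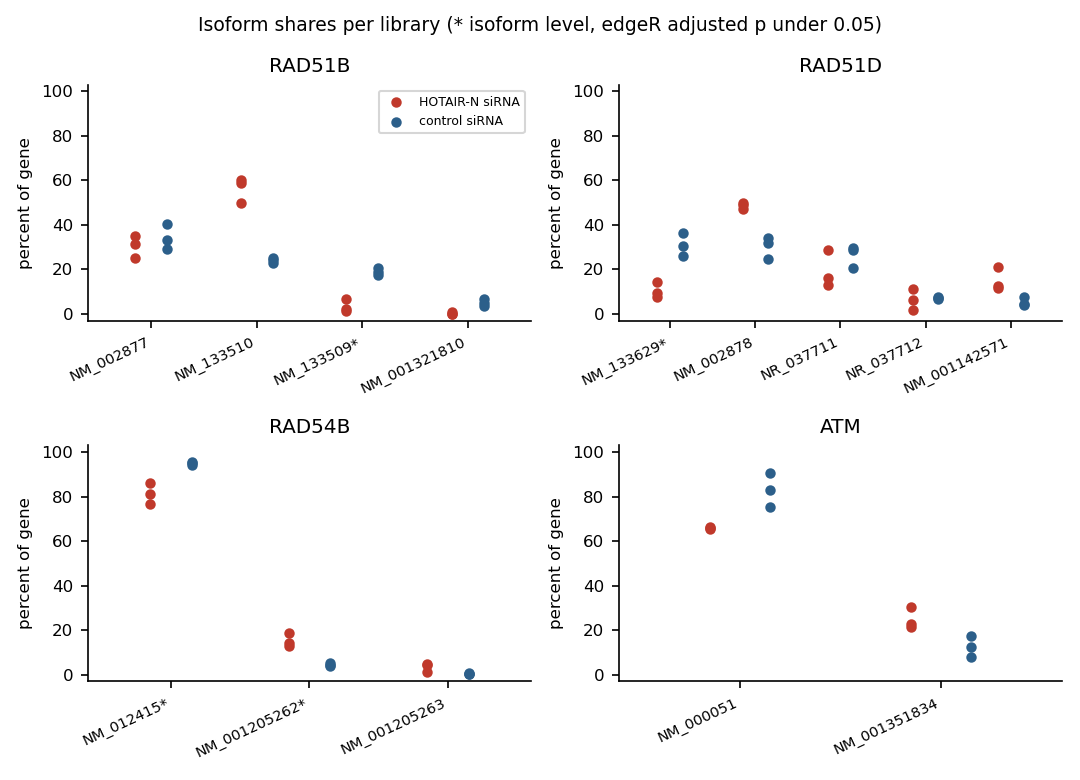
Points are the percent of its gene that each tested isoform made up in single libraries, red for HOTAIR-N siRNA and blue for control siRNA, with an asterisk where the isoform's level passed the edgeR test. In RAD51B the red points of NM_133510 lie between 49.6 and 60.2% and the blue ones between 22.8 and 25.2%, and in RAD51D the blue points of NM_133629 lie above the red ones.

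Promoters were searched because E2F factors drive many genes of S phase. RefSeq promoters of 300 bases on GRCh38.p14, 250 before and 50 after the gene start, were at hand for 33 of the 38 genes. For 31 of them this start lay within 1000 bases of the start of the GENCODE transcript paired with the main isoform, while for BRCA1 and RAD51B, which carried no E2F word, the starts lay 44844 and 3733 bases apart. The E2F words TTTCCCGC, TTTCGCGC, TTTGCCGC and TTTGGCGC, read on both strands, were found in 8 of these 33 promoters (24.2%), and in 5.24% of 11268 promoters of tested genes. The windows below show 1 site each from genes that were lower, then from MSH6, which was higher, with the word in capitals as it reads on the gene's strand.
EXO1, chr1:241848197-241848226, plus strand: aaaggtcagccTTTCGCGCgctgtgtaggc
XRCC2, chr7:152676102-152676131, minus strand: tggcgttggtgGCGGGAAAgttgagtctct
FANCD2, chr3:10026424-10026453, plus strand: cgtcgggcctgGCGGGAAAgtcgaaaacta
FANCC, chr9:95317737-95317766, minus strand: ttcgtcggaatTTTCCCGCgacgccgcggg
MSH6, chr2:47783137-47783166, plus strand: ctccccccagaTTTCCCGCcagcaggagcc
TOPBP1, FANCA and PMS2, which did not pass, also carried a word. Of the 8 carriers 4 were lower and 1 higher, with a median log2 fold change of -0.17, and of the 25 other members 14 were lower and 2 higher, with a median of -0.21. The median of the carriers was thus not below that of the other members. The GC box GGGCGG was in 75.8% of member promoters and 69.6% of all, the letters CCAAT in 45.5% and 36.2%, the cell cycle element TTTGAA in 9.09% and 9.82%, and the palindromic NRF1 motif in 0 of 33 and 2.24%. A match describes letters in a window and is not a measured binding site.

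The transcripts were searched for the 7-base words GACCAAT and ACCAATA, which overlap by 6 letters and went with lower expression across genes in earlier results of these data, so that they are not independent of these values. Transcripts came from GENCODE release 29, with each 3' UTR kept only as far as the deposited transcript length reaches. Some GENCODE transcripts were shorter than the deposited isoform, at 2855 against 5150 nt for PMS2, 5215 against 7856 nt for WRN and 6048 against 8166 nt for BRIP1. The rest of such isoforms was not searched. In their 3' UTR or coding sequence 10 of 38 members carried a word (26.3%), against 18.7% of 13047 tested genes. The windows show sites in 4 genes that were lower and in ATR, which did not pass, with the word in capitals on the transcript strand and GRCh38 positions.
BRIP1, coding, chr17:61686025-61686054: taaaggacagaACCAATAtacaggacaatg
FANCM, coding, chr14:45175663-45175692: ttagaacagatGACCAATtttataattgtc
XRCC2, 3' UTR, chr7:152647970-152647999: attaatttaccACCAATAtttcttcacaaa
CHEK1, 3' UTR, chr11:125655710-125655739: ttctaagatgaACCAATAaagacataattc
ATR, coding, chr3:142562528-142562557: aaatggatactGACCAATtgaaactctatg
Of the 10 carriers 7 were lower and none higher, with a median log2 fold change of -0.34, and of the 28 other members 14 were lower and 4 higher, with a median of -0.18. MSH6, which was higher, and RAD51D, which was lower, had a word in the 3' UTR past the deposited length. Both were therefore counted among the other members. Over all tested genes the medians were -0.21 for carriers and 0.04 for others. RAD54L and RAD51B, among the lowest members, carried no word in the stretch searched, and BRCA2 carried one in its coding sequence.

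Some member values share reads or ground with other genes. Counts were not whole in at least 1 library for RAD51D, RAD54B, FANCA, FANCL, FANCI, RAD50, ATM, ATRIP and PMS2, which marks reads divided with another gene, and the pseudogenes of PMS2 make its value uncertain. Of genes overlapping or next to members that passed, RFFL beside RAD51D had a log2 fold change of -0.17 (SE 0.05), FBXO11 beside MSH6 0.28 (SE 0.06), POLG beside FANCI 0.20 (SE 0.06), and KLC1 and ZFYVE21 beside XRCC3 0.23 (SE 0.05) and -0.63 (SE 0.09), all past the threshold. NBR2 beside BRCA1 (0.25), DECR1 beside NBN (0.17), RPL10A beside FANCE (0.04), STT3A beside CHEK1 (-0.12) and DCTN5 beside PALB2 (0.01) did not pass. Transcript length and GC content of the members had Spearman correlations with the log2 fold change of -0.19 and 0.25 across the 38 genes, and -0.13 and 0.15 across all tested genes with a value, given as descriptions across genes that share these 6 libraries.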

How the data were processed

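Per the submitters' processing notes, reads were processed with STAR 2.6.0c and RSEM 1.3.0 on the genome build hg19. Neither the annotation release nor whether counting used strand is stated in the sources at hand. For each of the 6 libraries the authors deposited gene and isoform tables. Expected counts, per the file headers RSEM's estimates of reads per gene or isoform, were not whole in 10.9% of deposited gene values (tolerance 0.005). TPM values, per the file headers, were scaled by the authors for length within each library. The percent of a gene made up by each isoform was also taken as deposited.

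Expected counts were rounded for edgeR 4.0.16 (R 4.3.3; filterByExpr by group, TMM, robust quasi-likelihood test, Benjamini-Hochberg adjustment over all tested genes or isoforms). Isoform use was tested with diffSpliceDGE and Simes p-values. The steps were tested on simulated data. Depth and the 3 libraries per group limit precision, and p-values measure the spread between transfections. The members, lists, pairs and words were chosen with earlier results of these data known. Named with values in each library were the 14 members with the smallest p and those that differed from their role group, and up to 4 genes of other lists. Alternatives were other scalings and filters, DESeq2 1.42.0, limma-voom (limma 3.58.1), a test against a fold of 1.5, a replicate block, length trends removed, each library left out and, added after the data were seen, a length and GC trend removed. Sequences came from RefSeq promoters and GENCODE release 29 on GRCh38, a build other than that of the counts, and all 38 members matched a GENCODE transcript. The siRNA sequences were not used here.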

Additional observations from a re-analysis of the deposited data

How the results depend on the processing

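Of 684 member results under the alternatives, 604 kept their direction and side of the threshold, 47 no longer passed, 11 newly passed and 22 changed sign, the last all in members that did not pass. Of the 38 members, 5 kept call and direction under every alternative and 23 under every one but the test against a fold of 1.5, counting the 5. That test called 2 members, 1 higher and 1 lower, and 1700 genes, 830 higher and 870 lower. With a length and GC trend removed, 7 members were higher and 23 lower, and FANCG had -0.0724, ATR 0.0184, TOPBP1 0.10, RECQL4 -0.13 and PMS2 0.0440, of which TOPBP1 passed (adjusted p = 0.00554). TOPBP1 had 0.0036 with upper-quartile factors, 0.0022 with library size only, 0.0485 with a length trend removed and 0.0494 with a replicate block in addition, where FANCG had -0.0081 and -0.0074.

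Leaving out each library gave 3 to 4 higher and 18 to 22 lower members. Under it RAD51AP1 ranged from -0.0891 to 0.0036, ATM from -0.0608 to 0.0830, RECQL4 from -0.0294 to 0.19, FANCG from -0.0191 to 0.0605 and TOPBP1 from -0.0720 to 0.0198. Member isoforms ranged from 8 to 15 calls, 1 to 3 higher and 7 to 14 lower, and isoform use from 0 to 2.

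Libraries with the same replicate number did not deviate together (Pearson r -0.12, 0.02 and -0.04 across genes). Those with unlike numbers had r from -0.14 to 0.17. These values show no pairing by number, but cannot tell whether libraries with the same number were prepared together. With the replicate block 4 members were higher and 19 lower, and 4 member isoforms passed, 1 higher and 3 lower, with 0 called for isoform use. The causes of these changes were not tested.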

Other observations

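Several members share a start region with a gene on the opposite strand. Among the genes looked up beside members, 9 such pairs had gene starts 82 to 518 bases apart. NBR2, 44635 bases from the gene start of BRCA1, is not counted among them. The main BRCA1 transcript, however, starts 44844 bases downstream of the RefSeq gene start, and its distance to NBR2 was not measured. The neighbours named below were singled out after their values were seen. NPAT, a histone gene activator whose start lies 158 bases from that of ATM in GENCODE release 29, had 22.1, 21 and 21.6 CPM with HOTAIR-N siRNA, against 37.3, 44.3 and 42.96 CPM with control siRNA, with a log2 fold change of -0.94 (SE 0.08, edgeR adjusted p = 7.61e-08), while ATM had 0.01 (SE 0.07) and did not pass. C12orf4, whose start lies 290 bases from that of RAD51AP1, had 104, 96.6 and 96.8 CPM with HOTAIR-N siRNA, against 53.3, 57.7 and 58.2 CPM with control siRNA and a log2 fold change of 0.81 (SE 0.06, edgeR adjusted p = 3.71e-08), beside -0.03 (SE 0.07) for RAD51AP1. TEX14, 518 bases from the start of RAD51C, had 14.2, 13.9 and 14.3 CPM with HOTAIR-N siRNA, against 5.78, 5.42 and 6.05 CPM with control siRNA (edgeR adjusted p = 7.68e-09), and ERC1, 456 bases from that of RAD52, had a log2 fold change of -0.63 (SE 0.05, edgeR adjusted p = 1.53e-07), while neither RAD51C nor RAD52 passed. AIMP2, 120 bases from the start of PMS2, had 0.26 (SE 0.07, edgeR adjusted p = 0.00363). XRCC3 and ZFYVE21, 226 bases apart, were both lower, at -0.21 and -0.63. LRRC14, 147 bases from the start of RECQL4, and DCTN5, 82 bases from that of PALB2, did not pass, at -0.07 and 0.01, and GAS2 beside FANCF was not tested. The differences within these pairs were not tested, and whether counting used strand is not stated.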
